A study of Mus musculus with 10 samples.

Results

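The genes described here handle retinoic acid, the active form of vitamin A, or respond to it: the enzymes Lrat, Aldh1a1, Dhrs3 and Cyp26b1 and the nuclear receptors Rara, Rarb, Rarg and Rxra. They were found by the RefSeq accessions of their probes, and are 8 of 20972 named genes and 11 of 55681 probes on the array. Cyp26b1, Rarb and Lrat were selected on their array signals, which differ strongly between these arrays, so their values are a description with no test. Rara, Rarg, Dhrs3 and Aldh1a1 were tested in fits across all features, and Rxra stayed under the call for signal well above background throughout.

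Vitamin A circulates as retinol. Cells store it as retinyl esters, made by Lrat (lecithin retinol acyltransferase), or oxidise it to retinaldehyde, which Aldh1a1 oxidises further to retinoic acid and Dhrs3 reduces back to retinol. Retinoic acid binds the receptors Rara, Rarb and Rarg, which sit on DNA as pairs with an Rxr partner, and Cyp26 enzymes clear it by oxidation. In mouse bone marrow, retinoic acid signalling is known for keeping blood stem cells dormant, with Cyp26b1 and Rarb among the genes involved.

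RNA came from bone marrow LSK cells, which lack lineage markers and carry Sca-1 and c-Kit, a sort gate that contains the blood stem cells along with early progenitors. They were sorted as CD45.2 cells from transplanted C57BL/6 mice. The cells carried a tamoxifen-inducible Cre with floxed Ezh2 (Cre-Ert;Ezh2fl/fl, here KO) or the Cre alone (Cre-Ert, here WT), so the WT cells hold the Cre as well, and the mice were given tamoxifen after transplantation. The promoter that drives the Cre is not given. Ezh2 is the catalytic subunit of Polycomb repressive complex 2, which methylates histone H3. The 8 KO arrays comprised 1 labelled 3 months with no disease and 7 labelled 9-12 months: 3 with an overlap of myelodysplastic syndrome and myeloproliferative neoplasm (MDS/MPN), 2 with myelodysplastic syndrome (MDS), 1 with disease not determined and 1 labelled as a mixture of diseases. The 2 WT arrays, 1 labelled 3 months and 1 labelled 9-12 months, had no disease. MDS/MPN replicate 1 carries the added label TC and replicate 3 the added label CMMoL, neither of which the labels explain. How many mice each array holds is not stated, apart from a group size of 3 in the series' design text for the earlier time point. P-values therefore measure the spread between these arrays, and their precision is limited by how few arrays there are.

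The 3-month KO and WT arrays lay on slide 1 and the other 8 arrays on slide 2, where the 3 MDS/MPN arrays and the undetermined one held a different line of positions from the rest. Disease and line cannot be told apart, nor can the time label and the slide. The time labels of 4 arrays also conflict: in the deposited value table, the column labelled 3-month WT holds the values of the scanner file labelled 9-12-month WT and the reverse, and the 3-month and mixed KO columns are exchanged in the same way. Genotype does not change under this exchange, so arrays are named here by the scanner files' labels and KO is set against WT within a slide. Between 32.5% and 47.5% of probes were well above background per array, and no probe was saturated. The single Ezh2 probe read 2.13 to 3.35 on the KO arrays (median 2.46) and 2.14 and 2.63 on the WT arrays, as log2 signal over the 75th percentile of the array. Whether that probe lies in the deleted part is not given, so it does not check the labels. The LSK markers Kit, Ly6a, Ptprc, Cd34 and Flt3 were well above background on all 10 arrays. A gene is called detected on an array where its signal was well above background by the call of the scanner software. All levels below are on this log2 scale, and a level of 0 is the signal of the probe at the 75th percentile.

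The promoters of Rarb and Cyp26b1 are shown because the signals of these genes varied most across the arrays while their promoters differ in retinoic acid receptor motifs. RefSeq promoter windows, from 250 bases before to 50 after the transcription start on build GRCm38.p6, were at hand for all 8 genes, and the 250 bases before the start are printed. They lie on the minus strand, at chr14:16575477-16575726 for Rarb and at chr6:84593811-84594060 for Cyp26b1. Capitals mark a direct repeat of the receptor hexamer with a spacer of 5 bases (DR5), the arrangement on which retinoic acid receptors are known to bind.
Rarb: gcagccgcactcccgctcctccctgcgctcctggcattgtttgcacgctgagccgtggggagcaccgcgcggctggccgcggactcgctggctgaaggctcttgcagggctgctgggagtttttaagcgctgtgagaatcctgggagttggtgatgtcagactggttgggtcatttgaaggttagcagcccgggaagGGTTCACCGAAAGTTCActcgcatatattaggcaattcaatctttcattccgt
Cyp26b1: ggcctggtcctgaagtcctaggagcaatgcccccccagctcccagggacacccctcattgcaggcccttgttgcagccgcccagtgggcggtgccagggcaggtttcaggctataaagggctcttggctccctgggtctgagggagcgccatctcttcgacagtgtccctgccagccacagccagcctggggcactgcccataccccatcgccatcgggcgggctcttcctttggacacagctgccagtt

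The hexamers searched on both strands were AGGTCA with its variant GGGTCA, along with AGTTCA and also GGTTCA, as single sites, which the repeats contain, and as direct repeats with spacers of 1 (DR1), 2 (DR2) or 5 bases. The Rarb promoter holds the DR5 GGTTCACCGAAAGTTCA, with its first base 53 bases before the start (position -53), and a further hexamer at position -83. A DR5 occurred in 32 of 32851 windows (0.0974%), a DR2 in 0.268% and a DR1 in 0.222%, and among the 8 genes only Rarb had any of these in its windows. The Cyp26b1, Lrat and Dhrs3 windows held no hexamer, whereas 43.7% of all windows held at least 1. CpG dinucleotides, the sites of DNA methylation, numbered 17 in the Rarb window, 9 in that of Cyp26b1 and 21 in that of Lrat, against a median of 7 over all windows. These matches describe the letters of the windows and are not measured binding sites.

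**Figure D1:**
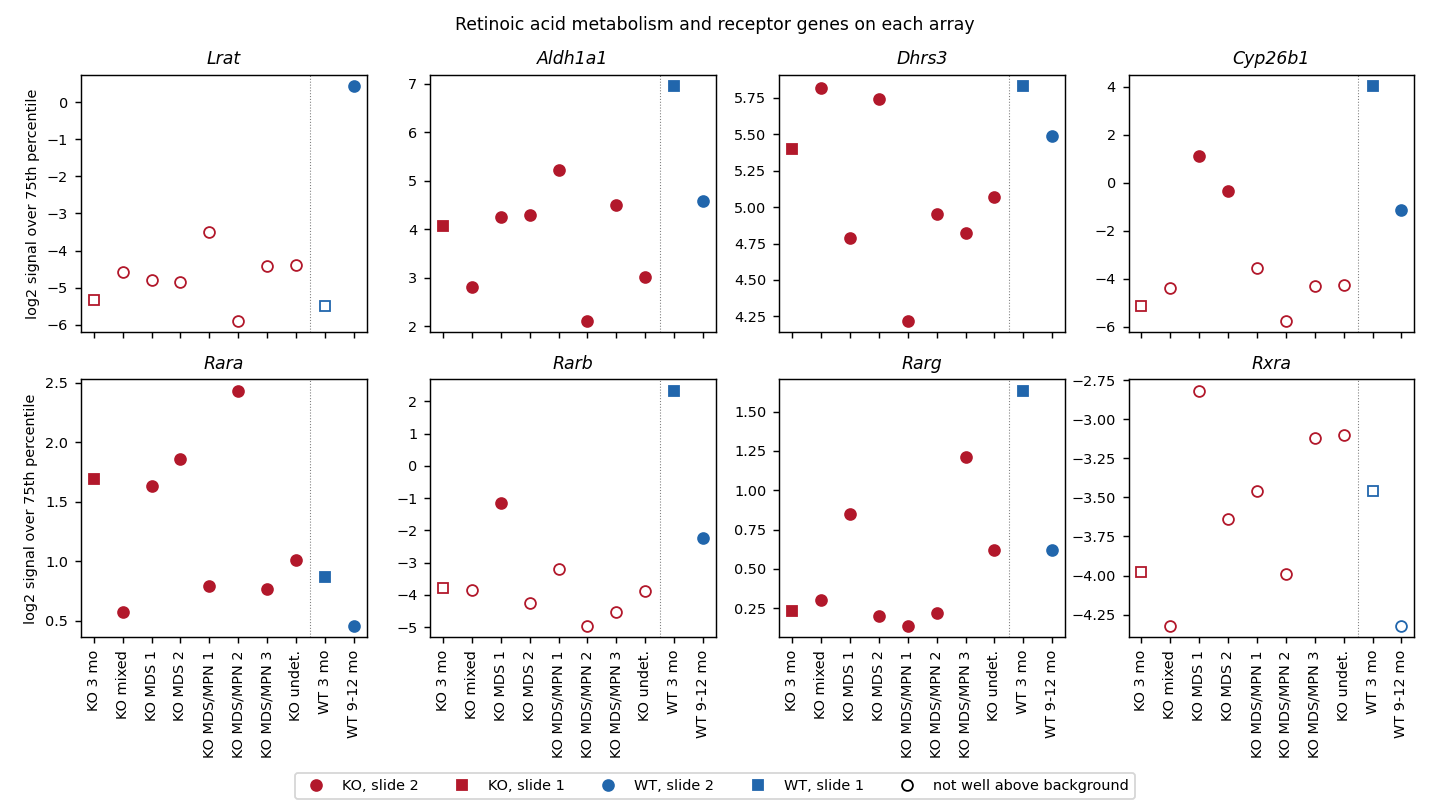
Log2 signal over the 75th percentile of the array (vertical axis, a scale per gene) for each of the 8 genes on the 8 KO arrays (red, left of the dotted line) and the 2 WT arrays (blue). Squares are arrays of slide 1, circles those of slide 2, and open symbols were not well above background; Cyp26b1 and Rarb peak on the 3-month WT array, at 4.02 and 2.32, and Lrat on the 9-12-month WT array, at 0.43.

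Cyp26b1, the enzyme that oxidises retinoic acid, was detected on 2 of 8 KO arrays and on both WT arrays. Its level was 1.13 and -0.35 on the MDS arrays, and the other 6 KO arrays, not well above background, read between -5.75 and -3.56. The WT arrays read 4.02 at 3 months and -1.14 at 9-12 months. KO and WT therefore overlapped across slides: both MDS arrays lay above the 9-12-month WT array and below the 3-month WT array. Its SD over the 10 arrays was 3.17. This exceeded the SD of 99.9% of the 27431 features detected on at least 1 array, whose median SD was 0.64. That rank restates how the gene was selected, and the SD includes 6 signals not well above background. In these bulk samples, fewer cells of a type in the gate and less RNA per cell cannot be told apart.

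Within slide 1, Cyp26b1 was at least 145-fold lower on the KO array than on the WT array. This bound takes the lowest signal well above background on the dim array in place of a dim signal below it. The median over all features was 0.23 log2 in this pair. On slide 2, the mixed KO array was at least 2.39-fold lower than the WT array, and the 3 MDS/MPN arrays together were at least 2.53-fold lower, or at least 1.66-fold without MDS/MPN 2. The MDS arrays averaged 0.39, against -1.14 on that WT array, a difference of 1.53 log2. Under the value table's labels, which put the array that reads 4.02 in that place, both MDS arrays lay below WT. Between the diseases, Cyp26b1 was at least 7.29-fold lower on the MDS/MPN arrays (none of which detected it) than on the MDS arrays. Without MDS/MPN 2 this bound was at least 4.79-fold. With normexp background correction and quantile normalization, the measured differences were smaller than these bounds, at -4.78 log2 in the slide 1 pair and -1.84 log2 for MDS/MPN minus MDS. Features at least 2-fold lower made up 12.1% of 22427 in the slide 1 pair, 4.35% of 19580 in the mixed pair and 8.61% of 20726 in MDS/MPN against MDS.

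Rarb, the receptor whose own gene is a known target of retinoic acid, was detected on 1 of 8 KO arrays and on both WT arrays. The MDS 1 array read -1.14, and the other 7 KO arrays, not well above background, read between -4.95 and -3.19. The WT arrays read 2.32 at 3 months and -2.24 at 9-12 months, so the MDS 1 array lay between the 2 WT arrays and the other KO arrays lay below both. Its SD of 2.16 exceeded that of 99.5% of features, a rank that again restates the selection. By its brighter probe, Rarb was at least 44.5-fold lower on the KO array of slide 1 than on its WT array. The mixed KO array of slide 2 was at least 1.12-fold lower than the WT array of that slide. No MDS/MPN array detected it. The second Rarb probe was well above background on the 3-month WT array alone, at -0.72. Its measured difference in the slide 1 pair, -4.17 log2, was smaller than the bound of the brighter probe.

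Lrat, the retinyl ester synthase, was detected on none of the 8 KO arrays and on 1 of the 2 WT arrays. The KO arrays read between -5.89 and -3.51, and the WT arrays read -5.50 at 3 months and 0.43 at 9-12 months. The 9-12-month WT array thus stood apart from all the others, the 3-month WT array included. Lrat was at least 7.55-fold lower on the 6 KO arrays of slide 2 other than the mixed one (3 MDS/MPN, 2 MDS and the undetermined array) than on that WT array, a comparison in which 6.92% of 19597 features were at least 2-fold lower, and at least 7.13-fold lower on the mixed KO array. Lrat entered both comparisons through that WT array alone, so a lower KO level came with entry. With normexp background correction and quantile normalization, the measured difference for the 6 KO arrays was smaller than their bound, at -1.92 log2. In the slide 1 pair neither array detected Lrat. Features well above background on 1 array alone numbered 369 for the 9-12-month WT array, 581 for the 3-month WT array and between 237 and 1487 for the KO arrays.

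Aldh1a1, which makes retinoic acid, was detected on all 10 arrays and varied more than most genes, its SD of 1.36 exceeding that of 91.1% of features. The KO arrays ranged from 2.12 to 5.23 with a median of 4.16, and the WT arrays read 6.95 at 3 months and 4.59 at 9-12 months. The MDS/MPN 1 array, at 5.23, was the only KO array above the 9-12-month WT array. On slide 1 the level was 4.07 on the KO array and 6.95 on the WT array, a difference of -2.88 log2 with no replicate. On slide 2, the mixed KO array read 2.82 and the WT array 4.59, a difference of -1.78 log2. The 6 KO arrays of slide 2 other than the mixed one averaged 3.90 ± 1.13 (SD, n = 6), against 4.59 on the WT array of their slide, a difference of -0.69 ± 0.99 log2 (SE), which did not pass the test (limma, Benjamini-Hochberg adjusted p = 1). Under the value table's labels, which put the other WT array in that place, it was -3.04 log2 (limma adjusted p = 0.206). In the fit of all 10 arrays, which blocks on slide, the difference between KO and WT was -1.59 ± 0.81 log2 (limma adjusted p = 0.954). Without the 3-month WT array it was -0.85 log2, and without the 9-12-month WT array -2.88 log2. Differences in this fit are taken within slides and need not equal the difference of the 2 means.

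Dhrs3, the reductase that returns retinaldehyde to retinol, varied little on these arrays. The KO arrays ranged from 4.22 to 5.82 (median 5.01), and the WT arrays read 5.83 at 3 months and 5.49 at 9-12 months, so the groups overlapped. The 6 KO arrays of slide 2 other than the mixed one averaged 4.93 ± 0.49 (SD, n = 6), against 5.49 on the WT array of their slide. That difference, -0.55 ± 0.54 log2 (SE), did not pass the test (limma adjusted p = 1), nor did that of all 8 KO arrays against both WT arrays, -0.43 ± 0.44 log2 (limma adjusted p = 0.968).

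The other receptors were steadier than Rarb. Rara, the receptor fused to PML in human promyelocytic leukaemia, was detected on all 10 arrays, between 0.57 and 2.43 on the KO arrays (median 1.32), against 0.87 and 0.46 on the WT arrays at 3 and 9-12 months. It was highest on MDS/MPN 2 and lowest on the 9-12-month WT array, and the genotypes overlapped. The same 6 KO arrays of slide 2 averaged 1.41 ± 0.67 (SD, n = 6), against 0.46 on the WT array of their slide. This difference of 0.95 ± 0.65 log2 (SE) did not pass the test (limma adjusted p = 1). With all arrays and the slide block it was 0.83 ± 0.51 log2 (limma adjusted p = 0.968). The second Rara probe, detected on 9 arrays, differed from the first in the mixed pair, where it gave 0.86 log2 and the brighter probe 0.11 log2.

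Rarg, the third retinoic acid receptor, was detected on all 10 arrays. The KO arrays read between 0.14 and 1.21 (median 0.27), and the WT arrays read 1.63 at 3 months and 0.62 at 9-12 months. The 3-month WT array lay above every KO array, while the 9-12-month WT array lay among them. The slide 1 pair gave 0.23 on the KO array and 1.63 on the WT array, a difference of -1.40 log2 with no replicate. The tested differences were -0.08 ± 0.50 log2 for the 6 KO arrays on slide 2 (limma adjusted p = 1), or -1.08 log2 under the value table's labels, and -0.58 ± 0.40 log2 for all 8 KO arrays (limma adjusted p = 0.968). Rxra, a common partner receptor, read between -4.32 and -2.82 on the brighter of its 2 probes, with neither probe well above background on any array.

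No tested member passed an adjusted p of 0.05 in any fit. In the 6 KO arrays against the WT array of slide 2, 0 of 4 were called, in a comparison that called 0.0051% of 19597 features higher and 0.582% lower, and 1.42% and 3.25% at an unadjusted p under 0.05. A feature could enter that comparison through its 1 WT array alone. Among features detected on every array, more were higher than lower at an unadjusted limma p under 0.05. All 8 KO arrays against both WT arrays called 0 of 4, beside 0% of 22365 features in either direction. At an unadjusted limma p under 0.05, 1.9% of these features were higher and 3.64% lower. MDS/MPN against MDS called 0 of 4, beside 0% of 20726 features, with 1.49% higher and 2.96% lower at an unadjusted p under 0.05. None of the 4 had an unadjusted p under 0.05 in these 3 fits.

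**Figure D2:**
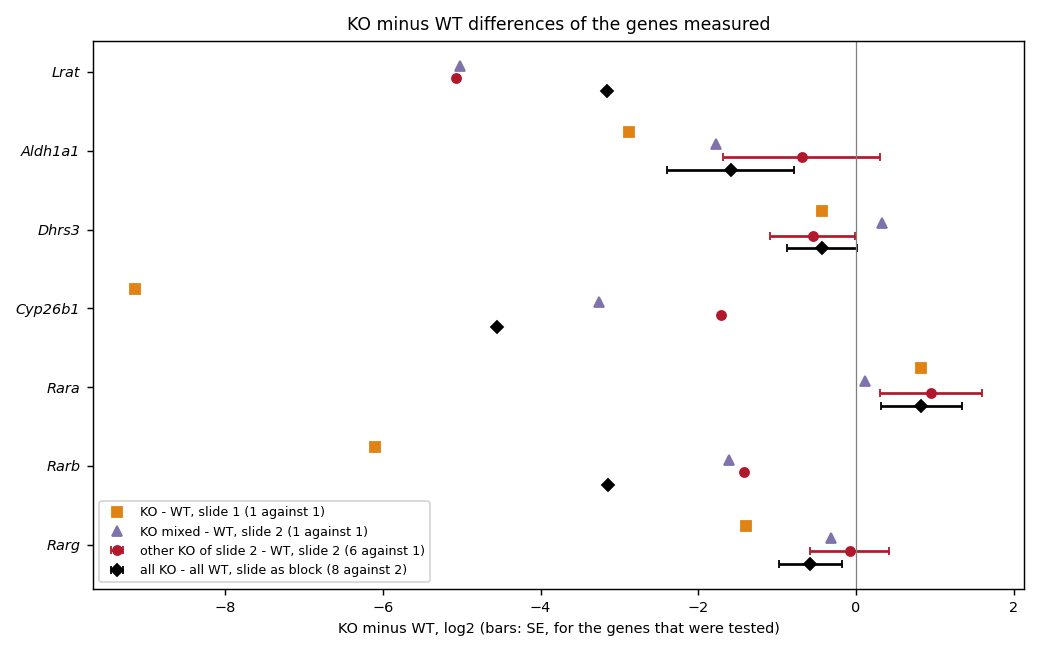
KO minus WT differences in log2 units (horizontal axis) for the 7 genes detected on at least 1 array, for the KO and WT pair of slide 1 (orange squares), the mixed KO array against WT (violet triangles), the 6 KO arrays of slide 2 other than the mixed one against WT (red circles) and all KO arrays against both WT arrays (black diamonds). Bars are the SE and are drawn for tested genes only; differences that involve arrays not well above background are the measured ones and not bounds, as for Cyp26b1 at -9.14 in the slide 1 pair.

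None of the tested members passed the test between the MDS/MPN and MDS arrays, and several of the differences moved with a single array. Dhrs3 averaged 4.66 on the MDS/MPN arrays and 5.27 on the MDS arrays, a difference of -0.60 ± 0.45 log2 (SE, limma adjusted p = 0.992), which was -1.08 log2 without MDS 1 and -0.13 log2 without MDS 2. Rara averaged 1.33 on the MDS/MPN arrays and 1.74 on the MDS arrays, with a difference of -0.41 ± 0.60 log2 (limma adjusted p = 0.995). Without MDS/MPN 2, the highest array, the Rara difference was -0.96 ± 0.19 log2 (SE, limma adjusted p = 0.119). Aldh1a1 averaged 3.95 on the MDS/MPN arrays and 4.28 on the MDS arrays, and its difference of -0.32 ± 0.93 log2 (limma adjusted p = 1) became 0.59 log2 without MDS/MPN 2. Rarg averaged 0.52 in both diseases, and its difference lay between -0.34 and 0.33 log2 when 1 array was left out.

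The 2 WT arrays also differed from each other. Cyp26b1 read -1.14 at 9-12 months and 4.02 at 3 months, a difference of -5.16 log2. Rarb differed by -4.55 log2, Aldh1a1 by -2.35 log2 and Rarg by -1.0 log2 in the same direction. Lrat differed the other way, at least 13.3-fold higher on the 9-12-month WT array. Dhrs3 and Rara differed by -0.34 and -0.41 log2. These values have no replicate, and slide and time label differ between the 2 arrays.

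Across the 10 arrays, which share the scaling and 2 slides, Cyp26b1 and Rarb had a Pearson r of 0.879 (Spearman rho 0.68, n = 10), and 0.746 over the 9 arrays without the 3-month WT array. Aldh1a1 had an r of 0.781 with Rarb and 0.751 with Cyp26b1, which became 0.466 and 0.495 without that array. Rarg and Rarb had an r of 0.71, and 0.255 without it. Lrat had an r of 0.0695 with Cyp26b1 and 0.0363 with Rarb, and 0.349 and 0.479 without that array. On 6 arrays the Cyp26b1 signal, on 7 the Rarb signal and on 9 the Lrat signal was not well above background, so these correlations also read signals with no measured order. Among 12955 named genes detected on at least 2 arrays, those most like Cyp26b1 by Pearson r were Sult1a1, a sulfotransferase (0.978), Gsta4, a glutathione transferase (0.969), Slc2a3, a glucose transporter (0.965), Trim47 (0.964) and Foxa3 (0.949). In a second version, each signal below the lowest detected signal of its array was set to that signal. The 5 genes then gave an r of 0.715 (Foxa3, detected on 3 arrays) to 0.953. Sult1a1 had a median of -1.31 over the KO arrays, against 5.43 and 0.68 on the WT arrays at 3 and 9-12 months. Without the 3-month WT array, the 5 genes most like Cyp26b1 gave an r of 0.908 to 0.981. The genes most like Rarb were Zfp110 (0.975), Tm4sf1 (0.971), Irak4 (0.961), Art4 (0.957) and Srxn1 (0.939), which without that array gave 0.781 to 0.971 and with dim signals so set 0.851 to 0.973. Those most like Lrat were Lyzl6 (0.944), 1810034E14Rik (0.931), Sepsecs (0.925), Padi6 (0.911) and Enox1 (0.898), which without the 9-12-month WT array gave 0.597 to 0.801 and with dim signals so set 0.881 to 0.998.

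Of 40 other genes of retinoid metabolism, transport and signalling, 18 were detected on all 10 arrays, 6 on 2 to 9 arrays, 6 on 1 array and 10 on none. Cyp26a1, a second enzyme that clears retinoic acid, was among the 10. Cyp26c1, the third, was detected on the MDS 1 array alone, at 1.18, the same array on which Cyp26b1 and Rarb were highest among the KO arrays. None of the 40 passed the adjusted p in the 3 fits. In the fit of all KO against both WT arrays, 26 were measured, 14 with a difference above 0 and 12 below, and their median was 0.06 log2, against 0.03 log2 over all features. Bco1, Aldh1a3, Adh1, Rdh10 and Rdh1 entered this fit through the WT group alone, and all but Rdh1 were below 0. Such entry favours a lower KO level. For the 6 KO arrays on slide 2 the count was 10 above and 13 below with a median of -0.02 log2, against -0.01 log2 over all features. There, Bco1 and Aldh1a3 entered through the WT array alone and Aldh1a7 through the KO arrays alone. MDS/MPN against MDS gave 13 above and 10 below with a median of 0.03 log2, against -0.02 log2.

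The partner receptors Rxrb and Rxrg were detected on every array. Rxrb read 5.41 to 6.42 on the KO arrays and 5.41 and 6.13 on the WT arrays at 3 and 9-12 months, a narrow range. Rxrg read 1.82 to 3.17 on the KO arrays and 2.65 and 2.87 on the WT arrays. Fabp5, which carries retinoic acid to the receptor Ppard, averaged 7.01 on the KO arrays and 6.33 on the WT arrays, a difference of 0.84 ± 0.65 log2 (SE, limma adjusted p = 0.968). Crabp2, which carries retinoic acid to its receptors, differed by -0.07 ± 0.40 log2 (limma adjusted p = 0.999).

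The largest differences in the pathway list lay among genes detected on part of the arrays. Bco1, which cleaves beta-carotene to retinaldehyde, was detected on 0 of 8 KO arrays and on the 9-12-month WT array alone. It was at least 2.65-fold lower on the 6 KO arrays of slide 2 than on that WT array. It entered this comparison through that WT array alone, so a lower KO level came with entry. Its level was between -5.95 and -3.79 on the KO arrays, against -5.56 and -1.08 on the WT arrays at 3 and 9-12 months, so it stood apart on the same array as Lrat. The retinaldehyde dehydrogenase Aldh1a3 was also detected on that array alone, at -1.51. Bco2, a second carotenoid-cleaving enzyme, was detected on 5 of 8 KO arrays and both WT arrays. It averaged -1.89 on the KO arrays and -0.15 on the WT arrays, a difference of -1.43 ± 0.52 log2 (SE, limma adjusted p = 0.738). Aldh1a7, a close relative of Aldh1a1, was detected on 5 of 8 KO arrays and 1 of 2 WT arrays, and differed by 1.58 ± 1.15 log2 (limma adjusted p = 0.968), highest on the undetermined KO array at 1.55.

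Of 22 genes known as retinoic acid targets, 13 were measured in the fit of all KO arrays against both WT arrays, 3 with a difference above 0 and 10 below, with a median of -0.62 log2 against 0.03 log2 over all features. None passed the adjusted p. For the 6 KO arrays on slide 2 the counts were 6 above and 7 below, with a median of -0.01 log2, the same as over all features. In the slide 1 pair, 9 of 13 were at least 2-fold lower and 1 at least 2-fold higher, against 12.1% and 12.8% of all features. Of these 9, Hoxb5, Hic1 and Cd38 entered through the WT array alone, so a lower KO level came with entry. The other lower targets were detected on both arrays of the pair. Hoxb5, Hic1 and Cd38 also entered the fit of all KO arrays through the WT group alone. Tgm2, a transglutaminase, read 1.80 on the KO array of slide 1 and 5.66 on its WT array, and averaged 2.36 on all KO arrays and 4.17 on the WT arrays (difference -1.56 ± 0.92 log2, limma adjusted p = 0.968). On slide 2 it averaged 2.68 on the 6 KO arrays and read 2.68 on the WT array, a difference of -0.01 ± 0.89 log2 (limma adjusted p = 1), with the MDS arrays averaging 3.70. Hoxb5, which the stem cell list below also holds, differed by -2.71 ± 0.90 log2 (limma adjusted p = 0.662) and was detected on 3 of 8 KO arrays and both WT arrays. Hoxa5 differed by -1.41 ± 0.85 log2 (limma adjusted p = 0.968). Cebpe, a factor of late granulocyte formation, averaged 3.28 on the KO arrays and 0.43 on the WT arrays, a difference of 2.72 ± 0.96 log2 (limma adjusted p = 0.703).

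The summed level of stem cell genes was highest on the arrays that detected Cyp26b1. For a list of 20 genes, the sum on the log2 scale lay between 4.84 and 6.95 on the KO arrays, with the MDS arrays highest at 6.80 and 6.95, against 8.38 and 6.73 on the WT arrays at 3 and 9-12 months. The 4 arrays that detected Cyp26b1 were the 4 with the highest sums. Single genes departed from this: Gata2, a transcription factor of early blood cells, was highest on MDS/MPN 3 and MDS/MPN 1, at 4.10 and 4.06, and Vwf read 3.51 and 3.43 there, above the MDS arrays and the 9-12-month WT array. In the slide 1 pair, 18 of 19 measured stem cell genes were at least 2-fold lower on the KO array, with a median of -3.21 log2, against 12.1% of all features. Mecom, Hoxb5, Clec1a, Gprc5c, Tek and Ndn entered this pair through the WT array alone, so a lower KO level came with entry. The other lower genes were detected on both arrays of the pair. Those entering through WT alone did so in the fit of all KO arrays as well. In the fit of all KO arrays, 18 of 19 differences were below 0 with a median of -1.84 log2, beside 10454 of 22365 features below 0 and a median of 0.03 log2, and none passed the adjusted p. On slide 2 the list's differences were smaller. For the 6 KO arrays, 14 of 16 were below 0 with a median of -0.75 log2. Over all features, 10034 of 19597 were below 0 there, with a median of -0.01 log2. In the mixed pair, 12 of 16 were below 0 with a median of -0.80 log2, beside 9383 of 19580 features and a median of 0.01 log2. Clec1a entered both comparisons through the WT array alone, as did Hoxb5 and Ndn in the mixed pair. Clec1a differed by -3.50 ± 1.02 log2 (SE, limma adjusted p = 0.607), Procr by -2.54 ± 1.03 log2 (limma adjusted p = 0.832) and Esam by -2.33 ± 0.79 log2 (limma adjusted p = 0.667). The part of these genes in the values of Cyp26b1, Rarb and Aldh1a1 was not tested.

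**Figure D3:**
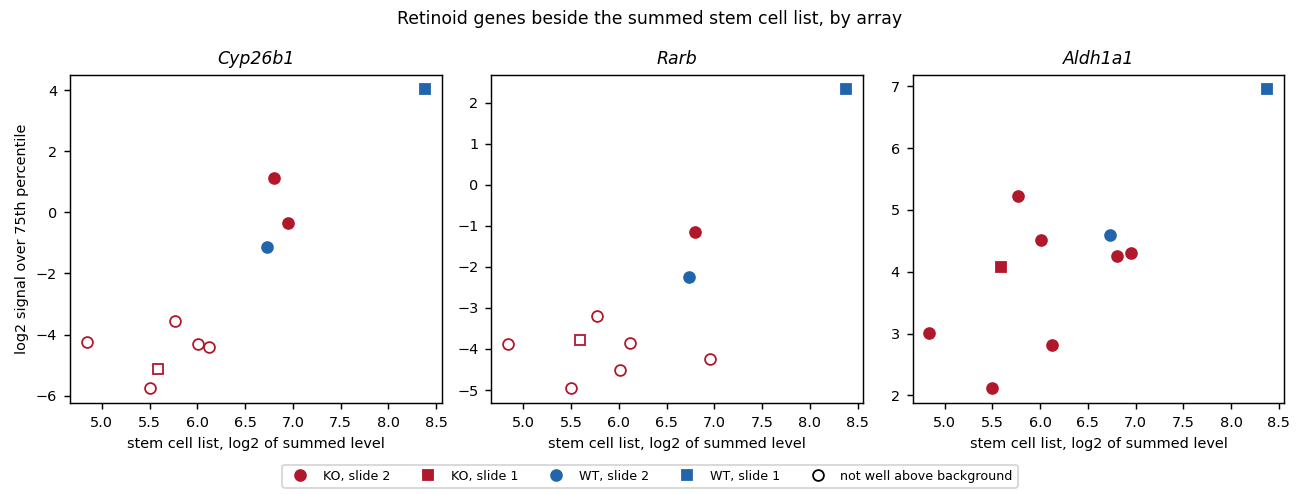
Log2 signal over the 75th percentile (vertical axis) of Cyp26b1, Rarb and Aldh1a1 against the log2 summed level of 20 stem cell genes (horizontal axis), a point per array, KO in red and WT in blue, squares for slide 1, circles for slide 2 and open symbols for signals not well above background. The 3-month WT array, at a sum of 8.38, has the highest level of all 3 genes.

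Markers of maturing blood cells had medians above 0 in the fit of all KO arrays. In the fit of all KO arrays against both WT arrays, the medians were 2.01 log2 for erythroid, 1.80 log2 for neutrophil, 2.09 log2 for mast cell and basophil and 2.13 log2 for monocyte and macrophage genes, and none of these genes passed the adjusted p. Alas2, Cma1, Vcam1 and Adgre1 entered this fit through the KO group alone, so a higher KO level came with entry. In the mixed pair of slide 2 the 4 medians were 0.26, 0.46, -0.16 and 0.21 log2. Ngp, Il1rl1 and Cd14 entered that pair through the KO array alone. The summed neutrophil level was 9.70 to 12.12 on the KO arrays, against 8.35 and 10.10 on the WT arrays. The summed erythroid level was 5.53 to 8.99 on the KO arrays, against 6.91 and 6.09 on the WT arrays. The summed mast cell and basophil level was 3.40 to 6.65 on the KO arrays, against 2.14 and 3.62 on the WT arrays. The summed monocyte and macrophage level was 4.96 to 7.20 on the KO arrays, against 3.79 and 5.25 on the WT arrays. Of 12 stromal and endothelial genes, 4 to 6 were detected per array, with Kdr, Lepr, Pdgfrb and Col1a2 on all 10 arrays and Pdgfra, Col1a1, Col3a1, Cdh5, Des and Reln on none. Kdr, a growth factor receptor of endothelial cells, read 3.52 to 6.27 on the KO arrays, against 5.75 and 5.56 on the WT arrays. The list's summed level was 4.38 to 6.85 on the KO arrays and 6.25 and 6.24 on the WT arrays. The part of any of these lists in the retinoid genes' values was not tested.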

How the data were processed

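RNA of 10 samples was hybridised to Agilent 1-colour arrays, with 0.02 µg of RNA labelled per array, per the labels' protocols. Per the file headers, Feature Extraction 10.7.1.1 made the intensity of each spot that the authors deposited, whereas the submitters' processing notes name version 9.1. The deposited value table holds a ratio, found to be the same intensity over the 75th percentile of the array. Probes were named through RefSeq accessions: 27656 of 55681 matched 1 symbol of the RefSeq table of GRCm38.p6, and promoter sequences come from RefSeq on that build, while the array annotation is on mm9.

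From the intensities, log2 values minus the 75th percentile were computed. Controls and outlier spots were dropped, replicate spots averaged, and each gene given by its brightest probe, among 48997 features. Features well above background on at least 50% of the arrays of 1 compared group entered limma 3.58.1 (R 4.3.3), with Benjamini-Hochberg adjustment over all of them at 0.05. A group of 1 array was assumed to vary like the others of its fit. The disease fit held the undetermined and the 9-12-month WT array as groups of their own and left out the mixed array. A bound ("at least") sets each dim value below its array's lowest detected signal to that signal. Named genes were the 8 genes, the up to 4 members of each list with the largest difference over all KO arrays, and the 5 genes most like Cyp26b1, Rarb and Lrat. The genes and lists were chosen with earlier results of these data known, and 1 listed pathway gene is not reported here. Scripts were tested on simulated data. Figures and tables were made in Python 3.11.15 with numpy 2.4.6, pandas 2.3.3 and matplotlib 3.10.9.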

Additional observations from a re-analysis of the deposited data

Results flagged for a closer look

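By the scanner files' labels, Cyp26b1 stood on opposite sides of the 9-12-month WT array in the 2 diseases. All 3 MDS/MPN arrays lay below it and both MDS arrays above it, and the mean log2 difference, MDS/MPN minus MDS, was -4.93, or -1.84 with normexp and quantile normalization. Under the value table's labels the 9-12-month WT array reads 4.02, so that both MDS arrays lie below it as well. The MDS/MPN signals were not well above background, and this difference was not tested.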

How the results depend on the processing

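Of 176 recomputed differences of tested members, 171 kept their direction and their side of the threshold and 5 changed sign. Of 160 without a test, 133 moved by less than 1 SD of the 6 KO arrays of slide 2, 25 moved by more and 2 changed sign. That SD is wide: under normexp with quantile normalization, those 6 KO arrays minus WT gave -0.28 for Cyp26b1, against -1.71 with percentile scaling, and -0.25 for Rarb, against -1.42. The 115 features called for the 6 KO arrays on slide 2 became 247 under quantile normalization (9 higher, 238 lower), 182 with the mixed array added, 50 with no filter, 0 with features detected on every array (138 higher and 75 lower at an unadjusted p under 0.05) and 0 with trended, robust limma (286 and 552 unadjusted). Leaving out 1 array gave 0 to 215: 0 without MDS 1 (235 and 631 unadjusted), 0 without MDS/MPN 3 (233 and 568 unadjusted), 4 without MDS 2, 12 without the undetermined array and 215 without MDS/MPN 2. For all KO arrays against both WT arrays, 0 called became 3 under quantile normalization, 3 with the value table, 2 with no slide block, and 0 to 177 on leaving out 1 array (177 without the 3-month WT array, 154 without the 3-month KO array). Bco1 was the pathway gene called in 6 alternatives of these 2 fits. No KO array detected it and it entered through the 9-12-month WT array alone, so a lower KO level came with entry. MDS/MPN against MDS called 0 in all 12 alternatives (309 higher and 613 lower at an unadjusted p under 0.05 as reported, 4088 and 2388 without MDS/MPN 2). Features at least 2-fold apart numbered 5594 in the slide 1 pair, 1399 under normexp with quantile normalization and 1740 with the value table's labels. In the mixed pair they numbered 1735, then 535 and 5617. With the value table's labels, the 6 KO arrays minus WT gave -6.86 for Cyp26b1 and -5.96 for Rarb, and Dhrs3 was 0.33 in the 3-month pair and -0.43 in the mixed pair. MDS/MPN minus MDS for Rarg was 0.03 under normexp with quantile normalization and -0.34 to 0.33 on leaving out 1 array, and for Aldh1a1 -0.96 to 0.59. Over all KO arrays, Cyp26b1 ranged from -9.14 without the 9-12-month WT array to -1.93 without either 3-month array, and was -1.96 under normexp with quantile normalization. Rarb ranged from -6.10 to -1.44 on leaving out 1 array, and Lrat from -5.07 to -3.01. The cause of these moves was not tested. Leaving a dim array out of the bounds was added after seeing the data. Signals under the detection call limit every value of Cyp26b1, Rarb and Lrat given as a bound. No paired analysis was possible because the labels give no replicate numbers that groups share.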
